A study of Homo sapiens with 12 samples.

Results

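The genes described here lie on the distal long arm of chromosome 3 (3q), from MECOM to DLG1. They form a list of 36 symbols that are often gained together in squamous carcinoma, and membership was set by gene symbol with no threshold on an array value, although earlier results of these arrays were known when the list was drawn up. Each gene was read from its probe set with the highest mean over the 12 arrays, on the log2 scale. Of the 36 genes, 34 were measured among 18404 genes in all, and PIK3CA and SENP2 are not analysed here. RNA came from FaDU cells with shTP63, FaDU cells with shControl, JHU-029 cells with shTP63 and JHU-029 cells with shControl, with 3 arrays in each group. Both lines are established and come from squamous carcinoma of the head and neck, FaDU from the hypopharynx. All 4 groups carried a lentivirus, either one with a short hairpin RNA (shRNA) against TP63 or one with a control shRNA. RNA was taken 72 hours after knockdown. The knockdown target, TP63, encodes p63, which specifies the basal layer of stratified epithelia. The series concerns p63, the chromatin protein ACTL6A and the Hippo-YAP pathway. The labels name neither the hairpin sequence nor a clone, and the level of TP63 is not analysed here.

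Gain of distal 3q is among the most common chromosome changes of squamous cell carcinoma of the head and neck, lung, oesophagus and cervix. The gained stretch carries several genes with known roles in tumour growth: SOX2, a transcription factor of squamous progenitors; PRKCI, the atypical protein kinase C of the cell polarity complex; and ECT2, a factor needed for cytokinesis. Beside them lie many housekeeping genes, such as the proteasome subunit gene PSMD2 and the translocon gene SEC62. The values below are RNA levels, and gene copy number is not analysed here.

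The arrays of a group correlated at 0.993 to 0.997 across probe sets, and arrays of different lines at 0.940 to 0.951. Separate cultures are not named in the labels. The p-values therefore reflect the array-to-array spread alone, which may be technical, and 3 arrays per group limit the precision. The titles of 2 of the 3 FaDU control arrays carry an extra word, and results in FaDU are also given without them where this changes a call. The labelled cell type was checked on squamous epithelial markers, of which all 7 measured (9 listed) were above the median intensity in every group. The summed linear intensity of the 7 was 15861 to 16311 in FaDU shTP63 arrays and 22471 to 22744 in FaDU shControl arrays. In JHU-029 it was 31459 to 33245 in shTP63 arrays and 33364 to 35214 in shControl arrays. Of 6 measured fibroblast markers 1 was above the median in every group (COL1A1), as was 1 of 4 immune markers (CD68) and 0 of 4 endothelial markers. The endothelial sum, carried by CDH5, was 865 to 944 in FaDU shTP63, 498 to 524 in FaDU shControl, 122 to 139 in JHU-029 shTP63 and 131 to 142 in JHU-029 shControl. The fibroblast sum lay between 431 and 511 on every array, and the immune sum between 1760.2 and 2341.9. No marker is at 0, since RMA gives every probe set a positive value. In bulk RNA, fewer cells of a type and less RNA per cell cannot be told apart.

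The first comparison sets FaDU against JHU-029 and asks how the 2 lines differ in the RNA of this region. Nearly every member differed between the lines, in both directions, and the direction changed along the chromosome. Genes of the proximal stretch, such as USP13, MCCC1 and SEC62, were mostly higher in FaDU, while genes from KLHL24 to the telomere, such as KLHL24, MAP3K13 and PAK2, were mostly lower in FaDU. With shTP63, 15 members were higher and 16 lower in FaDU at an adjusted p under 0.05 in limma, which is 91.2% of 34 against 69.0% of all genes. With the control shRNA, in other arrays, 14 were higher and 16 lower, 88.2% against 63.8% of all genes. Median differences were -0.13 (shTP63) and -0.07 (shControl) on the log2 scale, against 0.08 and 0.05 over all genes. The members are brighter than most genes, and among the 12209 genes above the array median in some group 81.4% were called with shTP63 (37.8% higher, 43.5% lower) and 78.7% with shControl (37.1% higher, 41.5% lower). Of 33 such members 31 were called with shTP63 and 30 with shControl. All 34 members had shTP63 arrays of one line wholly above or below those of the other, as did 71.2% of all genes, and 30 members did so with shControl, as did 69.0% of all genes.

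**Figure D1:**
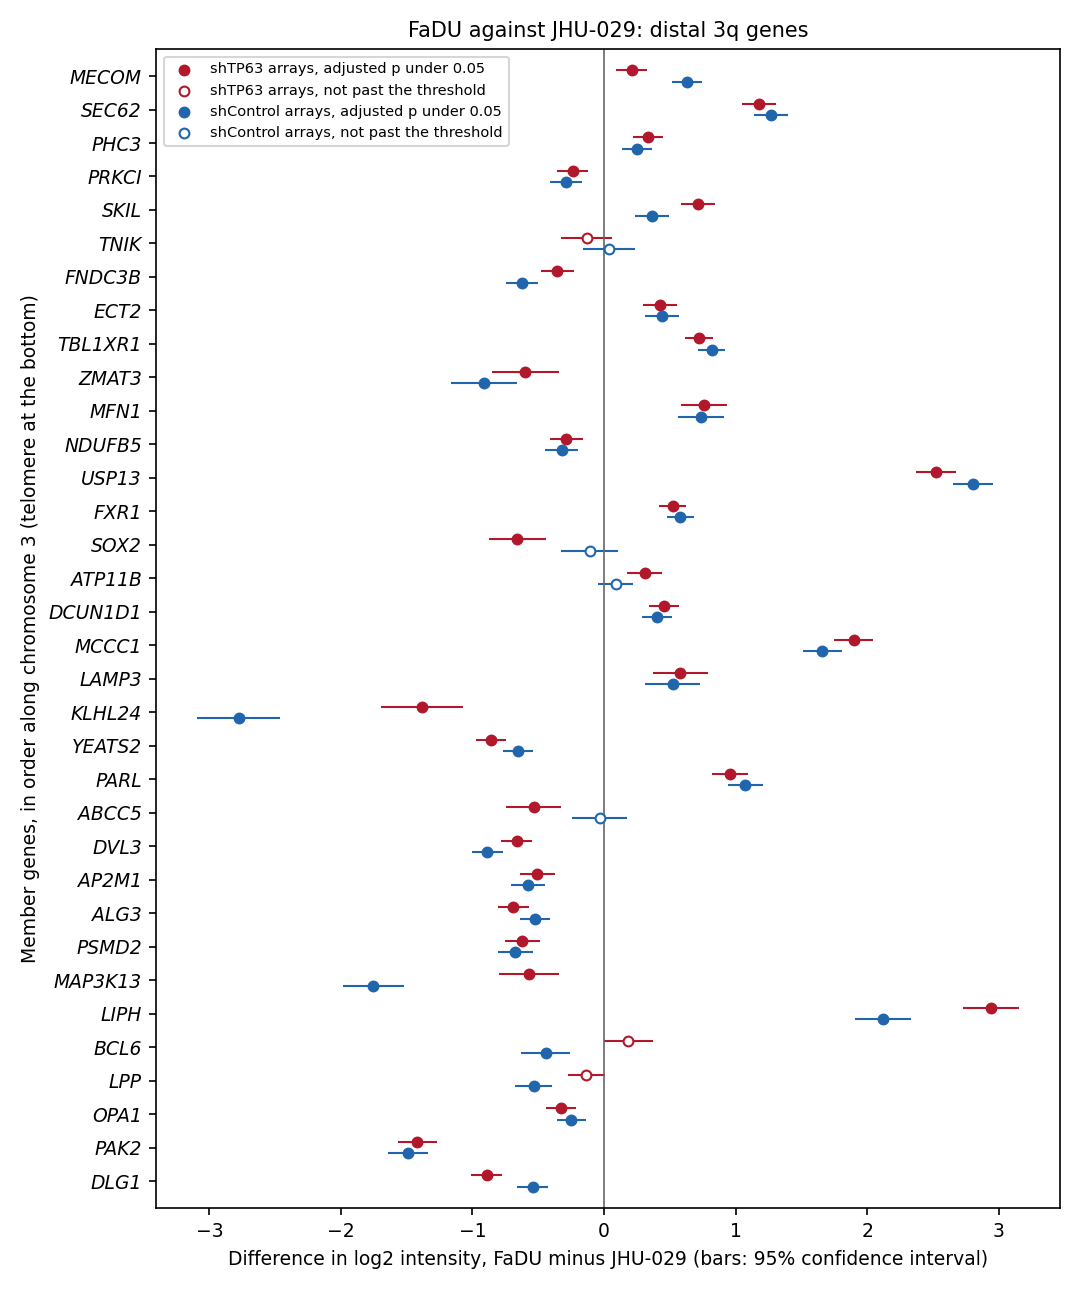
Difference in log2 intensity between FaDU and JHU-029 for the 34 measured members, in order along chromosome 3 from the centromere side at the top to the telomere at the bottom. Red points are shTP63 arrays and blue points shControl arrays (limma estimates from 3 arrays per group), bars are 95% confidence intervals, and open points did not pass the threshold. Filled points lie mostly to the right of 0 down to LAMP3 and mostly to the left from KLHL24 on, with PARL and LIPH on the right below it.

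The deubiquitinase gene USP13 (probe set 8084100), whose product removes ubiquitin from several tumour-related proteins, showed the largest excess in FaDU among members with the control shRNA. Its linear intensity was 763, 826 and 876 in FaDU shTP63 arrays, against 147, 139.6 and 141 in JHU-029 shTP63 arrays. With shControl it was 986, 874 and 845 in FaDU and 134, 127 and 125 in JHU-029. Every FaDU array was above every JHU-029 array, by 2.53 on the log2 scale with shTP63 (5.76-fold, SE 0.07, adjusted p = 7.97e-12) and by 2.80 with shControl (SE 0.07, adjusted p = 4.23e-12). MCCC1 (probe set 8092328), which encodes the biotin-carrying subunit of the mitochondrial leucine-breakdown enzyme methylcrotonyl-CoA carboxylase, read 945, 1013 and 963 in FaDU shTP63 and 234, 276 and 276 in JHU-029 shTP63. In shControl arrays MCCC1 read 809.6, 775 and 819.9 in FaDU, against 260.2, 255 and 246 in JHU-029. The groups did not overlap, and the differences were 1.90 (SE 0.07, adjusted p = 7.72e-11) and 1.66 (SE 0.07, adjusted p = 2.8e-10). SEC62 (probe set 8083826), a helper of the protein translocation channel of the endoplasmic reticulum, read 1781, 1650.3 and 1747 in FaDU shTP63 and 746, 775 and 765 in JHU-029 shTP63. Its shControl values were 1818, 1728 and 1597 in FaDU and 739, 695 and 695 in JHU-029. FaDU was thus 2.26-fold higher with shTP63 (log2 1.18, SE 0.06, adjusted p = 1.77e-09) and 2.41-fold higher with shControl (log2 1.27, SE 0.06, adjusted p = 9.61e-10).

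TBL1XR1, MFN1, FXR1, LAMP3, DCUN1D1, SKIL and PHC3, all in the proximal stretch, were also called higher in FaDU in both treatments. TBL1XR1 (probe set 8092201), a subunit of the NCoR and SMRT corepressor complexes, had 3868, 3712 and 3790.4 in FaDU shTP63 and 2229.6, 2308 and 2355 in JHU-029 shTP63, which differ by 0.72 on the log2 scale (SE 0.05, adjusted p = 2.48e-08). With shControl its values were 3853, 3849 and 3842 in FaDU and 2122, 2242 and 2186 in JHU-029, a difference of 0.82 (SE 0.05, adjusted p = 7.91e-09). MFN1 (probe set 8084045), a mitofusin that joins outer mitochondrial membranes, read 943, 826 and 784 in FaDU shTP63 and 468, 527 and 510.2 in JHU-029 shTP63, a difference of 0.76 (SE 0.08, adjusted p = 1.97e-06). With shControl MFN1 read 817, 723 and 833 in FaDU and 464, 485 and 473 in JHU-029, a difference of 0.74. All FaDU arrays of both genes were above all JHU-029 arrays. FXR1, an RNA-binding protein of the fragile X family, differed by 0.52 with shTP63 and 0.58 with shControl. With shTP63 the difference was 0.58 for the lysosomal membrane gene LAMP3, 0.46 for the cullin neddylation factor gene DCUN1D1, 0.71 for the SMAD corepressor gene SKIL and 0.34 for the Polycomb gene PHC3. With shControl it was 0.52 for LAMP3, 0.40 for DCUN1D1, 0.37 for SKIL and 0.25 for PHC3. A dimmer second probe set of PHC3 gave 1.75 with shTP63 (adjusted p = 1.65e-09) and 1.83 with shControl (adjusted p = 1.24e-09), in the same direction but several times larger. The flippase gene ATP11B passed only with shTP63 (0.31, SE 0.06, adjusted p = 0.000566; 0.09, adjusted p = 0.225 with shControl), and the test of the difference between these values gave an adjusted p of 0.119.

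Of the genes best known from this region, ECT2 was higher in FaDU, PRKCI lower, and SOX2 passed the threshold in shTP63 arrays and not in shControl arrays. ECT2 (probe set 8083941) read 2618, 2845 and 2737 in FaDU shTP63 and 1979.6, 2082 and 2054 in JHU-029 shTP63 (0.42, SE 0.06, adjusted p = 3.3e-05). With shControl its values were 2848, 2505 and 2595 in FaDU and 1998, 1932 and 1932 in JHU-029 (0.44, SE 0.06, adjusted p = 2.49e-05). The line groups of ECT2 did not overlap. PRKCI (probe set 8083854) read 1787, 1613 and 1618 in FaDU shTP63 and 1925, 2002 and 1992 in JHU-029 shTP63 (-0.24, SE 0.06, adjusted p = 0.00205). In shControl arrays it read 1549.8, 1594 and 1609.7 in FaDU and 1966, 1859.6 and 1982 in JHU-029 (-0.29, SE 0.06, adjusted p = 0.000542). Every FaDU array of PRKCI was below every JHU-029 array of the same treatment. SOX2 (probe set 8084165) read 154, 184 and 185 in FaDU shTP63 and 242, 294 and 290.5 in JHU-029 shTP63, which did not overlap (-0.66, SE 0.10, adjusted p = 6.03e-05). With shControl SOX2 read 208, 240.3 and 205 in FaDU and 252, 222 and 229.9 in JHU-029, which overlapped (-0.11, 95% confidence interval -0.32 to 0.11, adjusted p = 0.355). ACTL6A (probe set 8084067), the SWI/SNF subunit gene of the study's question, lies in the same stretch and is not on the list of 36. It read 894, 812 and 929 in FaDU shTP63 and 669.5, 661 and 712 in JHU-029 shTP63 (0.37, SE 0.06, adjusted p = 0.000152). Its shControl values were 922, 874 and 948 in FaDU and 677, 681 and 678 in JHU-029 (0.43, SE 0.06, adjusted p = 3.82e-05), again without overlap.

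MECOM, at the proximal end, depended on the probe set. Its product is a zinc finger transcription factor with roles in blood stem cells and leukaemia. The brighter probe set (probe set 8091972) read 444, 446 and 443 in FaDU shTP63 and 375, 389 and 388 in JHU-029 shTP63, a difference of 0.21 (SE 0.05, adjusted p = 0.0037). In shControl arrays it read 477, 501 and 461 in FaDU and 323, 311 and 295 in JHU-029, a difference of 0.63 (SE 0.05, adjusted p = 2.78e-07). The groups did not overlap. The other probe set (8091991) was lower in FaDU, at -0.60 with shTP63 (adjusted p = 0.00128) and -0.37 with shControl (adjusted p = 0.027). With median centring of the arrays the shTP63 difference was 0.14 (adjusted p = 0.0562). With the mean of both probe sets the shTP63 difference turned to -0.20 (adjusted p = 0.0349), and the shControl difference was 0.13 and did not pass (adjusted p = 0.144). No direction between the lines is therefore given for MECOM as a gene. In the counts of called members it stands as higher in FaDU, by its brighter probe set alone.

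Exceptions to the excess in FaDU in the proximal stretch were PRKCI, ZMAT3, FNDC3B and NDUFB5 in both treatments and SOX2 with shTP63. ZMAT3 (probe set 8092230), an RNA-binding protein induced by p53, read 251, 270.1 and 264 in FaDU shTP63 and 368, 411 and 409 in JHU-029 shTP63. In shControl arrays it read 187, 131 and 191 in FaDU and 324, 307 and 315 in JHU-029. FaDU was lower throughout. The difference was -0.60 with shTP63 (SE 0.12, adjusted p = 0.000537) and -0.91 with shControl (SE 0.12, adjusted p = 1.39e-05). FNDC3B, which encodes a fibronectin type III protein of the endoplasmic reticulum, differed by -0.35 (adjusted p = 0.000103) with shTP63 and -0.62 (adjusted p = 5.25e-07) with shControl. NDUFB5, a subunit of respiratory complex I, differed by -0.29 (adjusted p = 0.0007) with shTP63 and -0.32 (adjusted p = 0.000304) with shControl. The Wnt-pathway kinase gene TNIK read 43.5, 45.3 and 41.5 in FaDU shTP63 and 46.9, 48.6 and 47.3 in JHU-029 shTP63, under the array medians of 88.2 to 94.6 in every group, and passed in no comparison.

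From KLHL24 to the telomere the signs turned. KLHL24 (probe set 8084219) encodes an adaptor of a cullin 3 ubiquitin ligase that acts on keratin 14 in keratinocytes. Its intensity was 202, 196 and 158 in FaDU shTP63 arrays, against 413, 497 and 544 in JHU-029 shTP63 arrays. With shControl it was 83.5, 111 and 75.5 in FaDU and 652, 557 and 617 in JHU-029. All FaDU arrays were below all JHU-029 arrays, by -1.38 with shTP63 (2.61-fold, SE 0.14, adjusted p = 2.05e-06) and -2.78 with shControl (SE 0.14, adjusted p = 2.46e-09). MAP3K13 (probe set 8084589), a stress kinase upstream of JNK, read 132, 134 and 106 in FaDU shTP63 and 156, 198 and 199 in JHU-029 shTP63. Its shControl values were 72.2, 64.2 and 66.2 in FaDU and 233, 222 and 227 in JHU-029. The differences were -0.57 (SE 0.11, adjusted p = 0.000362) and -1.75 (SE 0.11, adjusted p = 9.6e-09), without overlap. For PAK2 (probe set 8084963), a kinase downstream of Rac and Cdc42, FaDU arrays read 621, 609 and 721 with shTP63, against 1732, 1727 and 1741 in JHU-029. In shControl arrays PAK2 read 675, 594 and 629 in FaDU and 1785, 1781 and 1763 in JHU-029. The difference was -1.42 with shTP63 (2.67-fold, SE 0.07, adjusted p = 1.19e-09) and -1.49 with shControl (SE 0.07, adjusted p = 8.18e-10), with no overlap.

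DVL3, PSMD2, YEATS2, ALG3, DLG1, AP2M1 and OPA1, all in the distal stretch, were called lower in FaDU in both treatments, by amounts from -0.25 (OPA1, shControl) to -0.89 (DLG1, shTP63). DVL3 (probe set 8084323), a Dishevelled protein of Wnt signalling, read 800.0, 744 and 769 in FaDU shTP63 and 1257, 1241 and 1168 in JHU-029 shTP63 (-0.66, SE 0.05, adjusted p = 2.02e-07). Its shControl values were 667, 704 and 658 in FaDU and 1287, 1246 and 1217 in JHU-029 (-0.89, SE 0.05, adjusted p = 1.25e-08). Both FaDU groups of DVL3 lay well apart from JHU-029. PSMD2 (probe set 8084423), a subunit of the proteasome's 19S cap, read 1765, 1862 and 1812 in FaDU shTP63 and 2779, 2777 and 2807 in JHU-029 shTP63 (-0.62, SE 0.06, adjusted p = 1.08e-06). Its shControl values were 1795, 1831 and 1616 in FaDU and 2892, 2839 and 2622 in JHU-029 (-0.67, SE 0.06, adjusted p = 5.1e-07). Neither gene's line groups overlapped. YEATS2 (probe set 8084232), a histone-reading subunit of the ATAC acetyltransferase complex, read 499, 462 and 469 in FaDU shTP63 and 859, 875 and 859 in JHU-029 shTP63 (-0.86, SE 0.05, adjusted p = 1.1e-08). ALG3 (probe set 8092457), a mannosyltransferase that builds the N-glycan precursor, read 1539.9, 1614 and 1569.6 in FaDU shTP63 and 2589, 2569.5 and 2459 in JHU-029 shTP63 (-0.69, SE 0.05, adjusted p = 1.07e-07). DLG1 (probe set 8093191), a scaffold of epithelial polarity, read 1317, 1328 and 1312 in FaDU shTP63 and 2399.6, 2468 and 2473 in JHU-029 shTP63 (-0.89, SE 0.05, adjusted p = 1.07e-08). For all 3 the FaDU arrays were lower, and their shControl differences were -0.65 for YEATS2, -0.52 for ALG3 and -0.54 for DLG1, each called. The clathrin adaptor gene AP2M1 (-0.51 with shTP63, -0.58 with shControl) and OPA1, which joins inner mitochondrial membranes (-0.33 with shTP63, -0.25 with shControl), completed the group.

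PARL and LIPH were the distal members called higher in FaDU. PARL (probe set 8092409), a protease of the inner mitochondrial membrane, read 704, 649 and 743 in FaDU shTP63 and 337, 365 and 378 in JHU-029 shTP63 (0.96, SE 0.06, adjusted p = 1.78e-08). In shControl arrays PARL read 732, 751 and 758 in FaDU and 355, 351 and 359 in JHU-029 (1.07, SE 0.06, adjusted p = 6.22e-09). The PARL groups of the lines were separate. LIPH (probe set 8092541), a phospholipase that makes lysophosphatidic acid and is needed for hair growth, read 218, 242 and 246 in FaDU shTP63 and 31.9, 32.1 and 28.2 in JHU-029 shTP63 (2.94, SE 0.10, adjusted p = 3.72e-11). Its shControl values were 96.7, 117 and 126 in FaDU and 28.0, 25.6 and 24.2 in JHU-029 (2.12, SE 0.10, adjusted p = 7.78e-10). Both genes had every FaDU array above every JHU-029 array. LIPH was under the array medians in JHU-029 and was not shown to be above background there. For BCL6, LPP and ABCC5 the threshold was passed in 1 treatment and missed in the other. BCL6, a transcriptional repressor gene, was at 0.19 with shTP63 (adjusted p = 0.0697) and lower in FaDU with shControl (-0.44, adjusted p = 0.000516). LPP, a LIM protein of cell adhesions, was at -0.13 with shTP63 (adjusted p = 0.081) and lower in FaDU with shControl (-0.53, adjusted p = 8.67e-06). The export pump gene ABCC5 was lower in FaDU with shTP63 (-0.53, adjusted p = 0.000275) and at -0.03 with shControl (adjusted p = 0.784).

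Because the signs followed position, the members were divided between LAMP3 and KLHL24, a point chosen after the values were seen, so the counts are a description with no test. Of the 19 measured members up to LAMP3, 13 were higher and 5 lower in FaDU with shTP63 (median 0.42), and 12 were higher and 4 lower with shControl (median 0.40). Of the 15 from KLHL24 on, 2 were higher and 11 lower with shTP63 (median -0.57), and 2 were higher and 12 lower with shControl (median -0.54). Over all genes 37.3% were called higher and 31.7% lower with shTP63, and 33.4% and 30.4% with shControl. The other measured genes in the same span numbered 131. Up to LAMP3, 21 of 34 of them were higher and 5 lower with shTP63 (median 0.37), and 20 were higher and 3 lower with shControl (median 0.31). From KLHL24 on, 28 of 97 were higher and 36 lower with shTP63 (median -0.05), and 22 were higher and 34 lower with shControl (median -0.05). Among the 59 of the 97 above the array median in some group, 15 were higher and 35 lower with shTP63 (median -0.38), and 12 were higher and 32 lower with shControl (median -0.24). The lean to lower values was thus clearer in these brighter genes than over all 97. The same filter also turned the lean over the whole array. Of the 12209 genes it kept, 37.8% were higher and 43.5% lower with shTP63, and 37.1% and 41.5% with shControl. Up to LAMP3 the filter left 13 other span genes called higher and 5 lower with shTP63, against 21 and 5 of 34 without it. The 836 measured genes nearer the other end of chromosome 3 had a median of 0.10 with shControl, and the medians of the 22 other chromosomes lay between -0.14 and 0.17. Medians of whole chromosomes cover many more genes than the member stretches, and shorter stretches of the other chromosomes were not examined. Over 24 other settings the member median stayed between 0.35 and 0.46 up to LAMP3 and between -0.64 and -0.48 from KLHL24 on with shTP63. With shControl those ranges were 0.35 to 0.43 and -0.60 to -0.53.

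**Figure D2:**
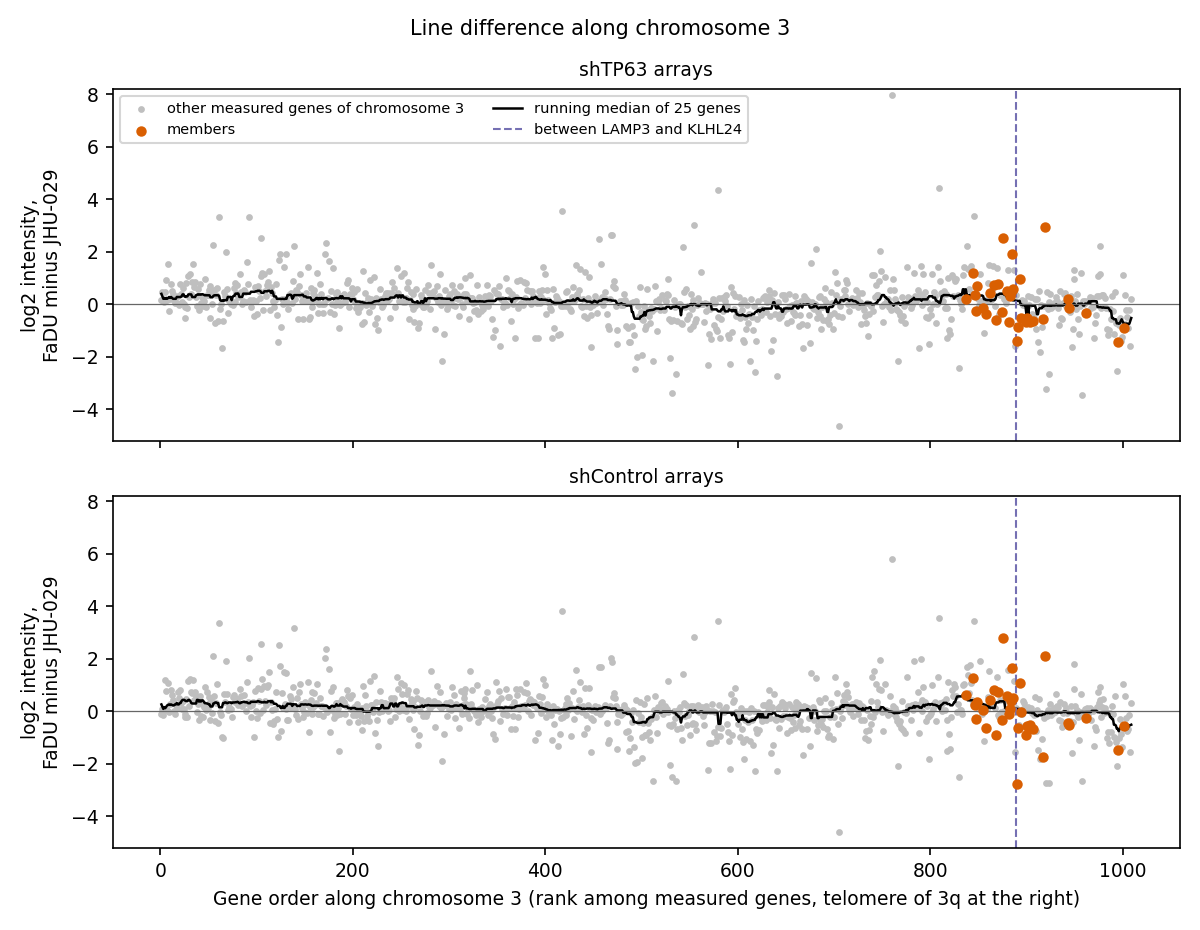
Difference in log2 intensity between FaDU and JHU-029 for the 1009 measured genes of chromosome 3, by their order along the chromosome, in shTP63 arrays (top) and shControl arrays (bottom). Orange points are the 34 members, grey points other genes, the black line is the running median of 25 genes and the dashed line marks the point between LAMP3 and KLHL24. Orange points lie mostly above 0 to the left of the dashed line and mostly below 0 to its right in both panels.

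The line difference of the members was alike in both treatments, which share no arrays. Across the 34 members the shTP63 and shControl differences correlated at 0.921 (Pearson) and 0.916 (Spearman), given as a description across genes, which are not independent replicates. Over all 18404 genes the values were 0.954 and 0.912. The sign was the same for 32 of the 34 members, and 28 were called the same way, while SOX2, ABCC5, BCL6, LPP, ATP11B and TNIK were not. Of all 18404 genes, 16108 had the same sign and 10188 were called the same way.

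The second comparison asks what 72 hours of TP63 knockdown did to these genes in FaDU. LIPH, KLHL24, MAP3K13, ZMAT3, BCL6 and SKIL rose by 1.44-fold to 2.09-fold, and ABCC5, YEATS2, ALG3, SOX2 and DLG1 fell. In all, 12 members rose and 5 fell, which is 50% of 34 against 26.6% of all genes, with 12.4% of all genes higher and 14.2% lower. Among genes above the array median in some group 16.4% rose and 20.3% fell (36.7% in all), and 17 of 33 such members were called. The median change of all 34 members was 0.09, against 0.02 over all genes. The shTP63 arrays lay wholly above or below the shControl arrays for 21 of 34 members, against 36.1% of all genes. In the same arrays the summed squamous markers were lower with shTP63 (15861 to 16311, against 22471 to 22744). The endothelial sum was higher (865 to 944, against 498 to 524), but of its 4 markers CDH5 alone was called. The part of these markers in the member changes was not tested. With FaDU arrays fitted alone, 7 members rose and 4 fell. The share of all genes called is not given for this fit or the next, so their counts do not set the members apart from all genes. Without the 2 FaDU controls of extended title, which leaves 1 control array assumed to vary like the other groups, 9 rose and 3 fell.

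**Figure D3:**
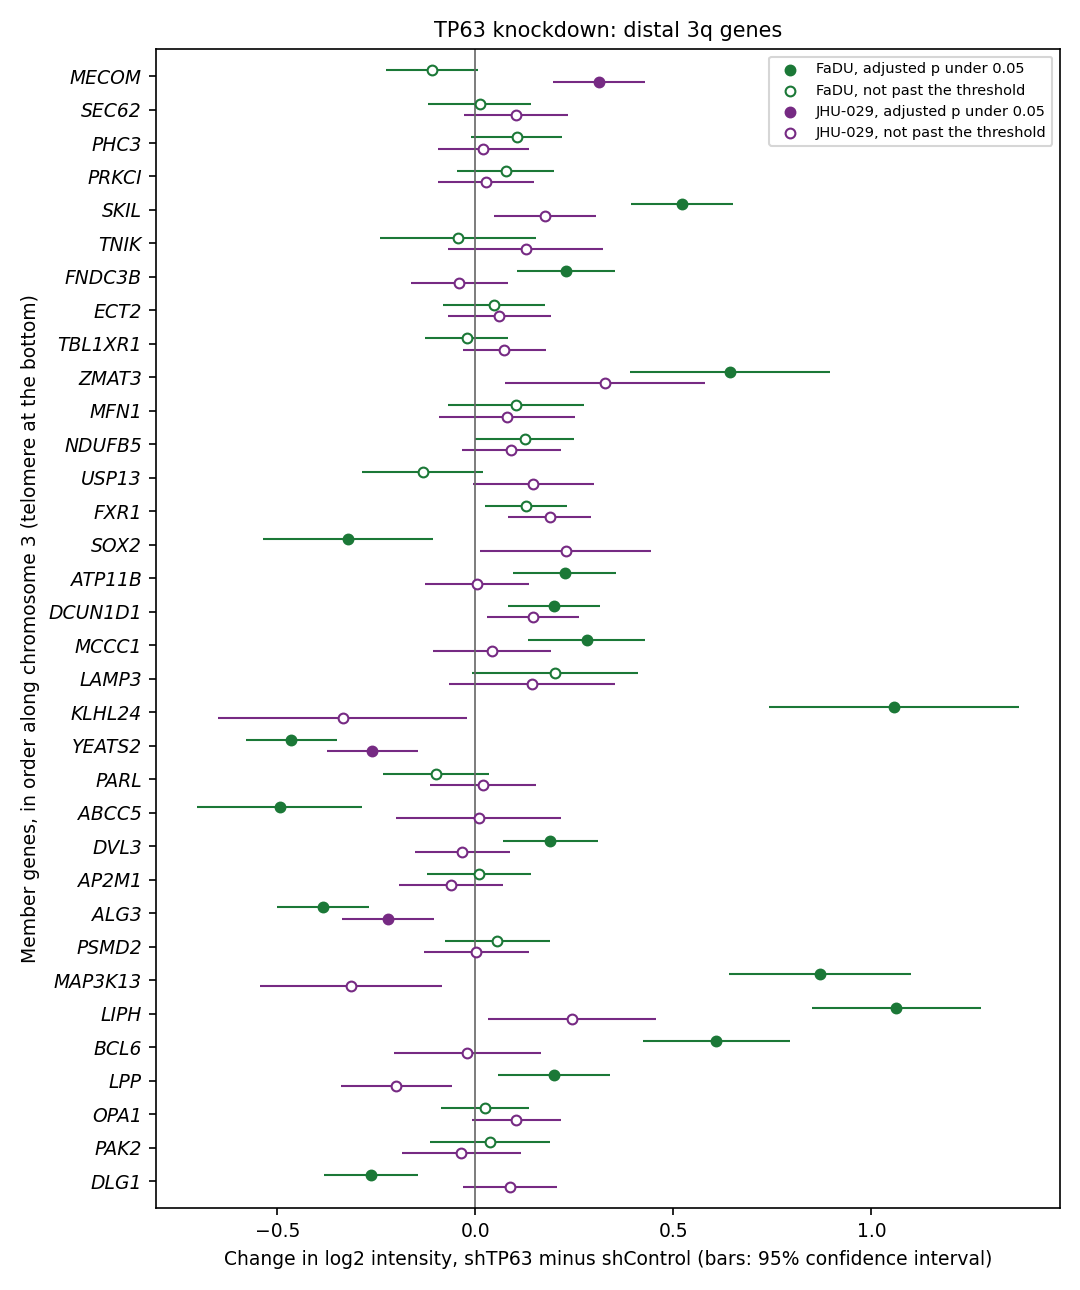
Change in log2 intensity after TP63 knockdown (shTP63 minus shControl) for the 34 measured members in order along chromosome 3, in FaDU (green) and JHU-029 (purple). Points are limma estimates from 3 arrays per group, bars 95% confidence intervals, and open points did not pass the threshold. FaDU has 17 filled points, from -0.49 for ABCC5 to 1.06 for LIPH, and JHU-029 has 3 (MECOM, YEATS2 and ALG3).

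The largest rises were in LIPH, KLHL24 and MAP3K13, of which the last pair averaged under the array median in FaDU shControl arrays. LIPH read 218, 242 and 246 in FaDU shTP63 arrays, against 96.7, 117 and 126 in FaDU shControl arrays, a rise of 1.06 on the log2 scale (2.09-fold, SE 0.10, adjusted p = 6.96e-06). KLHL24 read 202, 196 and 158 with shTP63 and 83.5, 111 and 75.5 with shControl, a rise of 1.06 (2.08-fold, SE 0.14, adjusted p = 0.000158). MAP3K13 read 132, 134 and 106 with shTP63 and 72.2, 64.2 and 66.2 with shControl, a rise of 0.87 (1.83-fold, SE 0.11, adjusted p = 6.24e-05). In each of these 3 genes every shTP63 array was above every shControl array. The distal genes KLHL24 and MAP3K13, low in FaDU, thus came nearer to their JHU-029 level, while LIPH, high in FaDU, moved further from it. Each of the 3 rises was called in all 24 other settings.

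Among regulators, ZMAT3, BCL6 and SKIL rose. ZMAT3 had 251, 270.1 and 264 with shTP63 and 187, 131 and 191 with shControl (0.64, 1.56-fold, SE 0.12, adjusted p = 0.00118), and 1 shControl array was lower than the other two. BCL6 (probe set 8092691), a repressor of differentiation programmes in B cells, had 422, 443 and 397 with shTP63 and 254, 273 and 303 with shControl (0.61, 1.52-fold, SE 0.09, adjusted p = 0.000187). SKIL (probe set 8083876), which restrains SMAD proteins in TGF-beta signalling, had 1262, 1157 and 1207 with shTP63 and 847, 827 and 849 with shControl (0.52, 1.44-fold, SE 0.06, adjusted p = 3.92e-05). None of the 3 had overlapping groups.

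Smaller rises were seen in MCCC1 (0.28, adjusted p = 0.00827), FNDC3B (0.23, adjusted p = 0.00898), ATP11B (0.23, adjusted p = 0.0141), DCUN1D1 (0.20, adjusted p = 0.0144), LPP (0.20, adjusted p = 0.0379) and DVL3 (0.19, adjusted p = 0.0215). These calls were less stable. With FaDU fitted alone the adjusted p was 0.059 for FNDC3B, 0.0772 for ATP11B, 0.0793 for DCUN1D1, 0.0874 for DVL3 and 0.131 for LPP. Leaving out 1 FaDU array ended the ATP11B call (shControl replicate 3, 0.0577, or shTP63 replicate 2, 0.06) and the DCUN1D1 call (shControl replicate 1, 0.0558, or shTP63 replicate 1, 0.0536). For DVL3 the call ended without shControl replicate 1 or 3 or shTP63 replicate 1 or 3, with adjusted p values up to 0.0734. Of the 12 fits with 1 array left out, LPP lost its call in 10 (all but FaDU shControl replicate 1 and JHU-029 shTP63 replicate 1, up to 0.142). Without the 2 controls of extended title, adjusted p was 0.122 for MCCC1, 0.209 for DCUN1D1 and 0.0617 for DVL3.

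The falls in FaDU were led by ABCC5, YEATS2 and ALG3. ABCC5 (probe set 8092418), which exports cyclic nucleotides and conjugates, read 174, 157 and 147 with shTP63 and 249, 216 and 209 with shControl, a change of -0.49 (SE 0.10, adjusted p = 0.00193), at -0.39 (adjusted p = 0.0597) without the 2 controls of extended title. YEATS2 read 499, 462 and 469 with shTP63 and 683, 634 and 656 with shControl (-0.46, SE 0.05, adjusted p = 3.78e-05). ALG3 read 1539.9, 1614 and 1569.6 with shTP63 and 1943, 2125 and 2105 with shControl (-0.39, SE 0.05, adjusted p = 0.000171). All shTP63 arrays of these genes were below all shControl arrays, and the YEATS2 and ALG3 calls held in every setting tried. DLG1 read 1317, 1328 and 1312 with shTP63 and 1691, 1491 and 1571 with shControl (-0.26, SE 0.05, adjusted p = 0.00307). SOX2 read 154, 184 and 185 with shTP63 and 208, 240.3 and 205 with shControl (-0.32, SE 0.10, adjusted p = 0.0292). The DLG1 shTP63 arrays were close together and below the shControl arrays, and the SOX2 groups were also separate. The SOX2 call ended without FaDU shControl replicate 2 (-0.25, adjusted p = 0.107), without FaDU shTP63 replicate 1 (-0.24, 0.116), with FaDU fitted alone (adjusted p = 0.0551) and without the 2 controls of extended title (-0.24, 0.284).

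Other well-known genes of the region gave no call in FaDU. ECT2 read 2618, 2845 and 2737 with shTP63 and 2848, 2505 and 2595 with shControl (0.05, 95% confidence interval -0.08 to 0.18, adjusted p = 0.631). PRKCI read 1787, 1613 and 1618 with shTP63 and 1549.8, 1594 and 1609.7 with shControl (0.08, interval -0.04 to 0.20, adjusted p = 0.365). ACTL6A read 894, 812 and 929 with shTP63 and 922, 874 and 948 with shControl (-0.06, interval -0.19 to 0.07, adjusted p = 0.536). The arrays of ECT2 and ACTL6A overlapped between treatments, while the PRKCI arrays did not. MECOM was at -0.11 (adjusted p = 0.165). Over the 17 members with no call, the change lay between -0.13 for USP13 and 0.20 for LAMP3, with adjusted p from 0.0698 to 0.937.

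**Figure D4:**
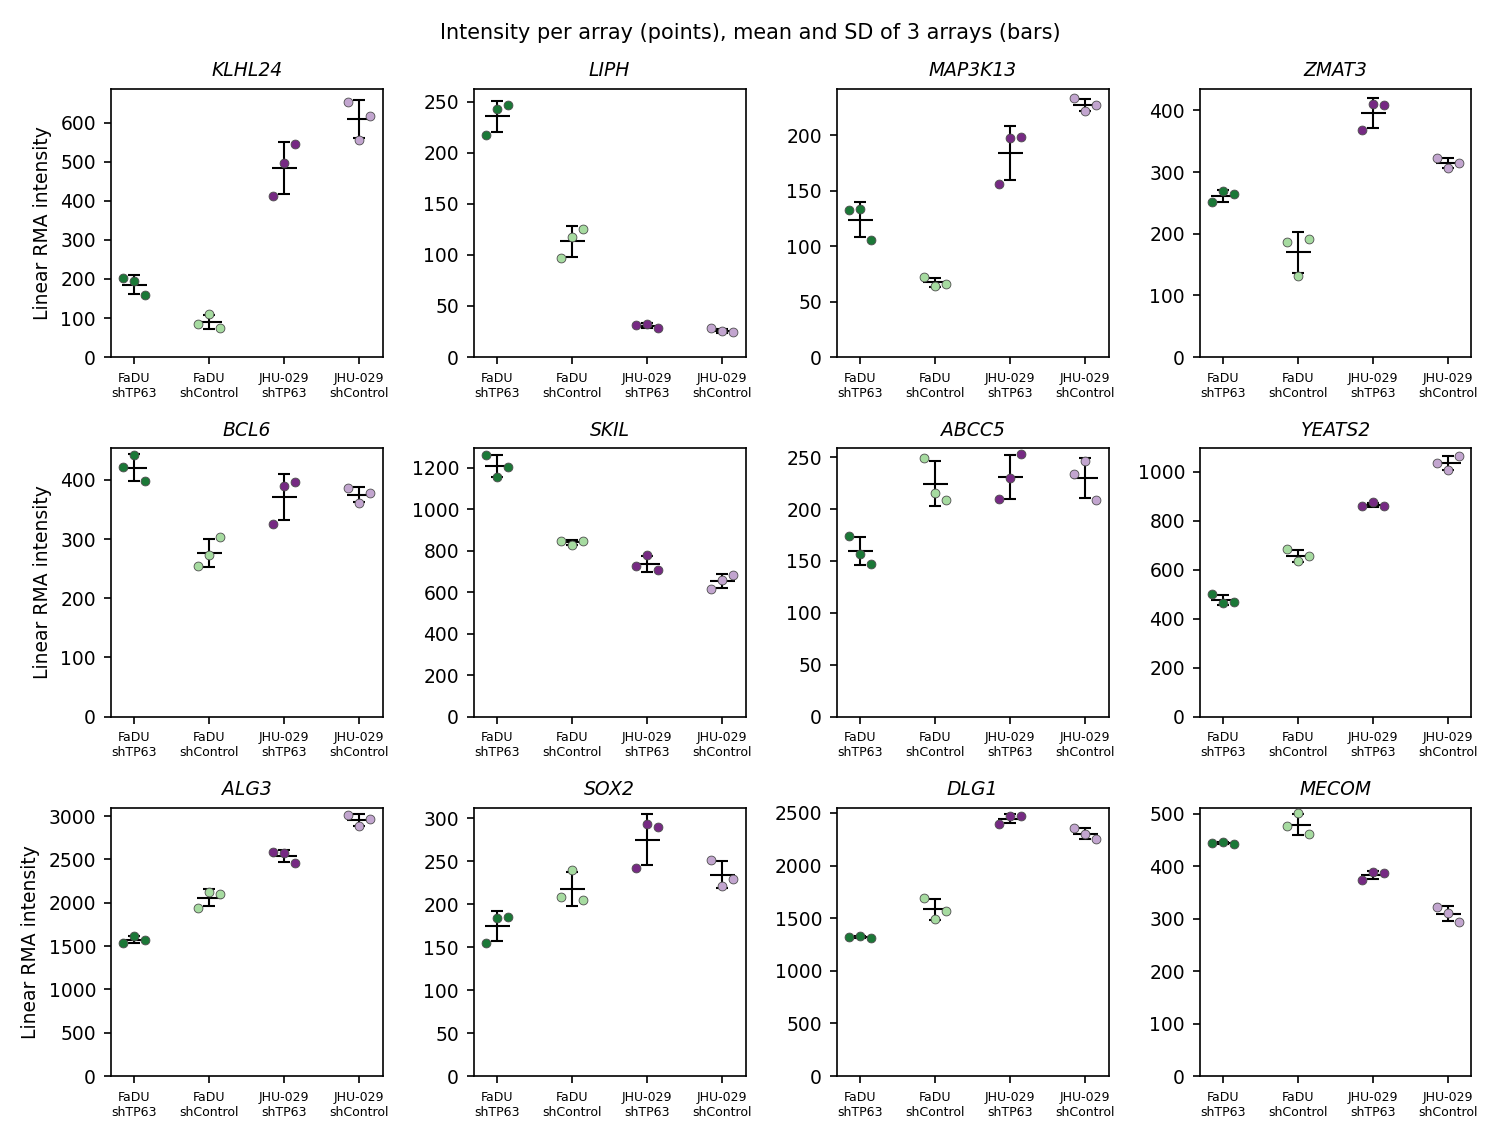
Linear RMA intensity on each array for 12 members, with the mean and SD of the 3 arrays of a group, in FaDU shTP63, FaDU shControl, JHU-029 shTP63 and JHU-029 shControl from left to right. KLHL24 and MAP3K13 are low in FaDU and higher there with shTP63 than with shControl, LIPH is low in JHU-029, and YEATS2 and ALG3 are lower with shTP63 than with shControl in both lines.

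The upstream sequence of members that rose in FaDU is shown here so that the bases can be read beside the changes. RefSeq windows of 250 bases before an annotated gene start (GRCh38.p14) were at hand for 32 of the 36 genes, 57 windows in all, out of 35116 windows of all genes. Both strands were searched for 10 letter patterns. Shares of the member windows are set against shares of all windows. The paired core of p53-family sites, CATG followed after 6 bases by CATG, was in 1 of the 57 member windows (LPP), 1.75% against 0.296%. Its looser form, with CNTG in both places, was in 4 member windows (7.02% against 12.5%), and the loosest, with CNNG, in 45 (78.9% against 68.6%). A pair of CATG only 2 bases apart (0.325% of all windows) and the octamer-like TTTGCATA (1.16%) were in no member window. The AP-1 pattern TGANTCA was in 8 windows, of TBL1XR1, BCL6, YEATS2, PSMD2, LPP and KLHL24 (14% against 6.57%). The cyclic AMP response element TGACGTCA was in 3, of SKIL, LPP and MAP3K13 (5.26% against 1.65%), and the FOX pattern GTAAACA in 4, of PIK3CA, MECOM, FNDC3B and LPP (7.02% against 2.98%). The TEAD pattern GGAATG was in 9 windows of 8 members (15.8% against 11.9%) and the SOX pattern ATTGTT in 3, of MECOM and DLG1 (5.26% against 8.98%). Some members have several windows, so these counts are not independent. Of the 6 genes with TGANTCA, BCL6, LPP and KLHL24 rose in FaDU, YEATS2 fell, and TBL1XR1 and PSMD2 gave no call. A match is a description of letters and not evidence of binding. The 5 windows below are of genes that rose in FaDU and were picked after values and matches were seen. They run 5′ to 3′ on the gene's strand up to the base before its start, in lower case, with the matched pattern in capitals.
SKIL (chr3:170357465-170357714, plus strand): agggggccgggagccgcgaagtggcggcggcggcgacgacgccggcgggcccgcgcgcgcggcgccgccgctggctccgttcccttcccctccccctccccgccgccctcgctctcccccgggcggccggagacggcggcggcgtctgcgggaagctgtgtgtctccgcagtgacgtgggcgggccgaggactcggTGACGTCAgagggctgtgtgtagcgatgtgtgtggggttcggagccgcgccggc
MAP3K13 (chr3:185282711-185282960, plus strand): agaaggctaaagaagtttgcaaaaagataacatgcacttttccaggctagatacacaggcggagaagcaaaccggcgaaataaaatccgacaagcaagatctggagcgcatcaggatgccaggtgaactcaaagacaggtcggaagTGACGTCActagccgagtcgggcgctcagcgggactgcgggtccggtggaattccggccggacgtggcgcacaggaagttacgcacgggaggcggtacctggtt
LPP (chr3:188584088-188584337, plus strand): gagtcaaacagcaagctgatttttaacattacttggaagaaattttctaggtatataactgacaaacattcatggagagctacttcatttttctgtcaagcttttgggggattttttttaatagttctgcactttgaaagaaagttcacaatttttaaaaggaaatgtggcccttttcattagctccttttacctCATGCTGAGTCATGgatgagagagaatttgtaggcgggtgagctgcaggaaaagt
KLHL24 (chr3:183635373-183635622, plus strand): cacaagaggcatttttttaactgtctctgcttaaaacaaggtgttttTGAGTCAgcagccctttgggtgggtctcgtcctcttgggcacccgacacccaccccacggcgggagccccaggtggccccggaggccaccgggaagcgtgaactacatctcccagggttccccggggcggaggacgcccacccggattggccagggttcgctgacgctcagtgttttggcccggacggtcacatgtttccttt
BCL6 (chr3:187736502-187736751, minus strand): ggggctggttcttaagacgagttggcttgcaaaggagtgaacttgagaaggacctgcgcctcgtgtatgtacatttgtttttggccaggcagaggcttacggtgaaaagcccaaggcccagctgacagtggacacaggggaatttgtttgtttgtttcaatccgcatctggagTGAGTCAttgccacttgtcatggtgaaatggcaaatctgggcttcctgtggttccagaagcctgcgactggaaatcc
The capitals mark TGACGTCA in SKIL and MAP3K13, TGANTCA in KLHL24 and BCL6, and the pair of CATG with the bases between in LPP, where the pair encloses a match to TGANTCA. They begin 54 bases before the start in SKIL, 104 in MAP3K13, 55 in LPP, 203 in KLHL24 and 77 in BCL6. LPP has 7 windows and BCL6 has 2, of which 1 each is shown. The rise in these genes was between 0.20 (LPP) and 1.06 (KLHL24) in FaDU. In JHU-029 none of the 5 gave a call, where only 3.15% of all genes and 3 of the 34 members were called.

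In JHU-029 knockdown was followed by few changes in these genes. MECOM rose and YEATS2 and ALG3 fell, 3 of 34 members (8.82%) against 3.15% of all genes, where 1.8% of all genes rose and 1.35% fell. Among genes above the array median in some group 4.53% were called (2.56% higher, 1.97% lower), as were 3 of 33 such members. The median change of all 34 members was 0.05, against 0.00 over all genes. The 3 shTP63 arrays lay wholly on one side of the shControl arrays for 18 of 34 members, against 24.9% of all genes. The median SD between arrays within groups was, in log2 units, 0.0940 in FaDU and 0.0709 in JHU-029.

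MECOM read 375, 389 and 388 in JHU-029 shTP63 and 323, 311 and 295 in JHU-029 shControl (0.31, SE 0.05, adjusted p = 0.00808). YEATS2 read 859, 875 and 859 with shTP63 and 1037, 1006 and 1064 with shControl (-0.26, SE 0.05, adjusted p = 0.0196). ALG3 read 2589, 2569.5 and 2459 with shTP63 and 3015, 2888 and 2964 with shControl (-0.22, SE 0.05, adjusted p = 0.0459). The groups of all 3 genes were separate, but the calls rested on few arrays. YEATS2 lost its call without any 1 of the 6 JHU-029 arrays, with adjusted p from 0.0512 to 0.0989. ALG3 lost it in 10 of 12 such single omissions (all but FaDU shControl replicates 1 and 2), with adjusted p up to 0.184. MECOM lost it without shControl replicate 3 (0.28, adjusted p = 0.0534) and with the mean of its probe sets (0.22, adjusted p = 0.163), and its other probe set was at 0.13 (adjusted p = 0.762). Without JHU-029 shControl replicate 3 the count of called members was 0 in limma (9 at an unadjusted p under 0.05), and without any other single JHU-029 array it was 1.

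SOX2 was at 0.23 in JHU-029 (242, 294 and 290.5 with shTP63 and 252, 222 and 229.9 with shControl, adjusted p = 0.299), with overlapping arrays. PRKCI read 1925, 2002 and 1992 with shTP63 and 1966, 1859.6 and 1982 with shControl (0.03, adjusted p = 0.907). ECT2 read 1979.6, 2082 and 2054 with shTP63 and 1998, 1932 and 1932 with shControl (0.06, adjusted p = 0.751). These 3 genes had arrays of both treatments interleaved. ACTL6A read 669.5, 661 and 712 with shTP63 and 677, 681 and 678 with shControl (0.00, interval -0.13 to 0.14, adjusted p = 0.99). Over the 31 members with no call the change lay between -0.33 for KLHL24 and 0.33 for ZMAT3, with adjusted p from 0.0571 (FXR1, 0.19) to 0.993. KLHL24, MAP3K13 (-0.31) and LPP (-0.20) had every shTP63 array below every shControl array in JHU-029, with adjusted p values of 0.298, 0.156 and 0.137 that missed the threshold.

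YEATS2 and ALG3 were the members called the same way in both lines, 2 of the 3 JHU-029 calls (66.7%) and 2 of the 17 FaDU calls (11.8%). Over all genes 336 were called the same way (1.83%), 57.9% of the JHU-029 calls and 6.86% of the FaDU calls. YEATS2 and ALG3 both lie in the distal stretch, and the difference between their changes in the 2 lines was -0.20 (adjusted p = 0.0983) for YEATS2 and -0.17 (adjusted p = 0.188) for ALG3.

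The third comparison tested whether the knockdown effect differed between the lines, as the FaDU effect minus the JHU-029 effect. For 7 members it was higher in FaDU and for 4 lower, 32.4% of 34 against 13.2% of all genes, with 4.97% of all genes higher and 8.25% lower. Among genes above the array median in some group the share was 18.7% (6.63% higher, 12% lower), and 11 of 33 such members were called. KLHL24 had the largest difference, 1.39 (SE 0.20, adjusted p = 0.000932), followed by MAP3K13, 1.18 (SE 0.15, adjusted p = 0.000338). Each of these genes rose in FaDU and stood at a negative value in JHU-029. LIPH (0.82, SE 0.14, adjusted p = 0.0022) and BCL6 (0.63, SE 0.12, adjusted p = 0.00467) followed, and these 4 differences held in every setting tried. In JHU-029, LIPH averaged 4.94 (shTP63) and 4.69 (shControl) in log2 intensity. Both levels lay under the median of all values (6.52) and were not shown to be above background. In JHU-029, BCL6 read 326, 390.3 and 396 with shTP63 and 386, 361 and 378 with shControl, which overlapped, whereas its FaDU groups were separate. SKIL read 727, 781 and 706 with shTP63 and 618, 658 and 683 with shControl in JHU-029 (0.18, adjusted p = 0.158), which did not pass. LPP (0.40, adjusted p = 0.0126), SKIL (0.35, adjusted p = 0.0173) and FNDC3B (0.27, adjusted p = 0.0441) were smaller. The SKIL difference was at 0.33 (adjusted p = 0.0834) without the 2 FaDU controls of extended title and at 0.31 (adjusted p = 0.054) without JHU-029 shControl replicate 3, and that of FNDC3B lost its call in 10 of 12 single omissions (all but FaDU shControl replicate 1 and FaDU shTP63 replicate 1, up to 0.106).

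In the other direction SOX2 differed by -0.55 (SE 0.14, adjusted p = 0.0215), with a fall in FaDU and a positive value in JHU-029. ABCC5 read 210.2, 230.0 and 253 with shTP63 and 234, 247 and 208 with shControl in JHU-029, which overlapped. ABCC5 differed by -0.50 (SE 0.14, adjusted p = 0.0286), MECOM by -0.42 (SE 0.08, adjusted p = 0.00326) and DLG1 by -0.35 (SE 0.08, adjusted p = 0.0103). DLG1 read 2399.6, 2468 and 2473 with shTP63 and 2355, 2304 and 2255 with shControl in JHU-029, where every shTP63 array was the higher, and its difference held in every setting tried. SOX2 lost its call without JHU-029 shControl replicate 2 or 3 or JHU-029 shTP63 replicate 2 or 3 (adjusted p 0.054 to 0.0582) and without the 2 FaDU controls of extended title (0.116). ABCC5 lost it in 7 of 12 single omissions (all but FaDU shControl replicates 2 and 3, FaDU shTP63 replicate 1, JHU-029 shControl replicate 2 and JHU-029 shTP63 replicate 1; up to 0.0771) and without the 2 controls (0.144). MECOM lost it with the mean of its probe sets (-0.33, adjusted p = 0.0642). Without JHU-029 shControl replicate 3, 5 members were called higher and 2 lower. PRKCI (0.05, interval -0.12 to 0.22), ECT2 (-0.01, interval -0.20 to 0.17) and ACTL6A (-0.06, interval -0.25 to 0.12) did not pass, with adjusted p values of 0.766, 0.942 and 0.716.

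Other named genes of distal 3q were set beside the members, from a list of which 88 of 91 were measured. The list was chosen with earlier results of these arrays known, so its shares cannot stand for the region. In FaDU 21 of them rose and 20 fell with knockdown, which is 46.6%, against 50% of the members and 26.6% of all genes. In JHU-029 3 rose and 2 fell (5.68%, against 8.82% of the members and 3.15% of all genes). Of all 131 other measured genes of the span 32.8% were called in FaDU and 4.58% in JHU-029. The mucin gene MUC20 (1.24, SE 0.11, adjusted p = 4.44e-06) and NAALADL2 (0.85, SE 0.13, adjusted p = 0.000371) led the rises in FaDU, although NAALADL2 averaged under the median of all values in both FaDU groups. TNFSF10, the death ligand TRAIL, rose in both lines, by 0.79 in FaDU (adjusted p = 1.27e-05) and by 0.51 in JHU-029 (adjusted p = 0.00425). MB21D2 (-0.75), the collagen prolyl hydroxylase gene P3H2 (-0.67) and the RNA-binding protein gene IGF2BP2 (-0.63) fell most in FaDU. In JHU-029 the tight junction gene CLDN1 (0.80) and the cholesteryl ester hydrolase gene NCEH1 (0.75) rose, and both changes were larger than any called member change there. Between the lines with shControl, 30 of the 88 were higher and 36 lower in FaDU, or 75% against 63.8% of all genes. Of all 131 other measured genes of the span 60.3% were called in that comparison. GPR160, in the proximal stretch, averaged 8.41 in FaDU shControl and 4.96 in JHU-029 shControl in log2 intensity, the second being under the median of all values (6.52) and not shown to be above background. In the distal stretch IGF2BP2 (-2.74) and MB21D2 (-2.66) were lower in FaDU, but CLDN1 was higher there (1.80, adjusted p = 8.87e-11). Of the 97 other span genes from KLHL24 on, 22 were higher and 34 lower in FaDU with shControl.

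Genes outside the region that work with the members, or are related to them, were also set beside them. Of 38 measured relatives on other chromosomes or arms (42 listed), 10 were higher and 17 lower in FaDU with shTP63 (71.1%), and 9 were higher and 17 lower with shControl (68.4%). Of 63 measured partners of the same complexes and pathways (73 listed), 22 were higher and 28 lower with shTP63 (79.4%), and 22 were higher and 30 lower with shControl (82.5%). While PSMD2 was lower in FaDU, its 13 measured 19S partners were divided with shControl, with 6 higher and 6 lower (median -0.02, against -0.67 for PSMD2). For the complex I gene NDUFB5 (-0.32), 9 measured NDUFB partners had 4 higher and 3 lower. USP5, the closest relative of USP13, was higher in FaDU by 1.35, against 2.80 for USP13. SMAD4, which SKIL binds, averaged 4.58 in FaDU shTP63 and 9.98 in JHU-029 shTP63 in log2 intensity, and 4.34 in FaDU shControl and 10.05 in JHU-029 shControl. The FaDU levels lay far under the median of all values (6.52) and were not shown to be above background, so no fold is given. MCCC2, which encodes the other subunit of the MCCC1 enzyme, was also higher in FaDU, by 1.99 (SE 0.05, adjusted p = 2.42e-12).

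After knockdown in FaDU the relatives gave 7 rises and 8 falls (39.5%), and the partners 10 rises and 13 falls (36.5%). MFN2, the other mitofusin, fell (-0.45, SE 0.06, adjusted p = 9.54e-05), whereas MFN1 was at 0.10 (adjusted p = 0.388). MCCC2 fell (-0.74, SE 0.05, adjusted p = 3.23e-07), while MCCC1 rose by 0.28. DCUN1D3, like DCUN1D1 a cullin neddylation factor, rose (0.57, SE 0.06, adjusted p = 1.05e-05), as did ATP11A, the relative of ATP11B (0.44, SE 0.07, adjusted p = 0.000588). PARD6B, which binds PRKCI in the polarity complex, rose in both lines, by 0.56 in FaDU (adjusted p = 4.1e-06) and by 0.29 in JHU-029 (adjusted p = 0.00606). ANLN, which works with ECT2 at the cleavage furrow, rose in FaDU (0.39, SE 0.05, adjusted p = 0.000161). PIK3R3, a regulatory subunit of the PIK3CA kinase, rose by 0.68 in the same cells (adjusted p = 1.78e-05). The JHU-029 count of relatives called was 0 in limma (4 of 38 at an unadjusted p under 0.05), and 4 partners rose, among them the complex I gene NDUFB1 (0.60), which fell in FaDU (-0.39).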

How the data were processed

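RNA of 12 FaDU and JHU-029 samples had been hybridised to single-colour arrays as biotin-labelled cRNA, per the labels. The deposited values are linear intensities, 1 column per array. Per the submitters' processing notes they come from RMA in R 2.15.1, a method that subtracts background, quantile-normalizes and summarises probes. Array-wide differences were not wholly absent from the deposited values. The median intensity of an array was 88.2 to 91.4 in JHU-029 and 91.9 to 94.6 in FaDU. Of 32321 probe sets, 19158 had 1 gene symbol in the platform annotation. Values were turned to log2 without an offset, and each gene was read from its brightest probe set, giving 18404 genes (637 had more than 1). limma 3.58.1 (R 4.3.3) fitted 4 group means to all 12 arrays, with p-values adjusted over all genes for each contrast (Benjamini-Hochberg) and a threshold of 0.05. Groups came from the labels. Members and gene lists were chosen with earlier results of these data known. All 36 members are accounted for. Values on every array are given for SOX2, PRKCI, ECT2, ACTL6A and up to 6 rises and 6 falls among called members per comparison, and up to 3 genes per direction are named from each other list. Alternatives were other scalings, a filter on dim genes, other uses of probe sets, an offset of 16, another variance prior, smaller fits, a replicate block and fits without single arrays. The fitting steps were also run on simulated arrays that held few changed genes and no line difference beyond them. That setting is unlike these data, so the run is a check of the code alone.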

Additional observations from a re-analysis of the deposited data

Results flagged for a closer look

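For 11 members the effect of TP63 knockdown differed between the lines by the test of the difference itself (FaDU effect minus JHU-029 effect, log2, limma, adjusted over all genes). That is 32.4% of 34 members, against 13.2% of all genes. The difference was 1.39 for KLHL24, 1.18 for MAP3K13, 0.82 for LIPH, 0.63 for BCL6, 0.40 for LPP, 0.35 for SKIL and 0.27 for FNDC3B. It was -0.55 for SOX2, -0.50 for ABCC5, -0.42 for MECOM and -0.35 for DLG1. Not all were equally stable. Of the 12 fits without 1 array, the call was lost in 10 for FNDC3B, 7 for ABCC5, 4 for SOX2 and 1 for SKIL. MECOM lost it with the mean of its probe sets. KLHL24, MAP3K13 and LPP had every shTP63 array above every shControl array in FaDU and below in JHU-029, and DLG1 and MECOM the reverse. Of these 5, KLHL24, MAP3K13, LPP and DLG1 were called in FaDU and MECOM in JHU-029.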

How the results depend on the processing

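Over 24 alternatives per comparison (23 for the difference between lines), most member results kept their direction and side of the threshold. For single genes, 1196 values without 1 array and 1213 values under other alternatives did so, 59 and 27 lost a call, and 5 and 6 changed sign. Members called with knockdown in JHU-029 numbered 3, and 6 with a trended robust prior. In FaDU they numbered 17, and 11 with FaDU alone. Leaving out single arrays gave 0 to 4 calls in JHU-029, 14 to 17 in FaDU, 7 to 11 for the difference, 31 to 32 between lines with shTP63 and 30 to 31 with shControl. The replicate block gave 2, 16, 10, 31 and 30 in the same order. The share of all genes called moved with the setting too. In FaDU it was 26.6% in the main fit, 24.8% with median centring and 28.0% with repeated quantile normalization. These member counts therefore show calls gained or lost, and not a change of the members relative to all genes. Same-numbered arrays did not deviate together (r from -0.34 to 0.01), so the numbers were not used as pairs. With the dim filter, other genes of the span called higher in FaDU numbered 13 (shTP63) and 13 (shControl) up to LAMP3, and 15 and 12 from KLHL24, since fewer genes were tested. Without the 2 FaDU controls of extended title the last was 13. Small values turned sign: ACTL6A in JHU-029 was -0.0073 with quantile normalization, -0.0093 with cyclic loess, and -0.029 to 0.025 without single arrays. PRKCI in JHU-029 was -0.0013 to 0.045 without single arrays. The ECT2 difference between lines was 0.0065 with quantile normalization, 0.025 with cyclic loess, 0.013 without the 2 controls and -0.054 to 0.038 without single arrays. MECOM between lines with shTP63 was -0.20 with the mean of its probe sets, which disagree. The cause of the other shifts was not tested.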
